A study of Homo sapiens with 4 samples.

Results

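Antisense long non-coding RNAs were described as the features whose symbol ends in -AS and a number and whose mean over the 4 libraries was at least 1 TPM (read counts divided by gene length and scaled to a fixed sum in each library). Of 339 such symbols listed, 140 met the minimum, and they were set against the 14208 features of any kind that did so. The other 199 antisense symbols lay below it, and 20 of them were at 0 in every library. Members were thus chosen by their TPM over all 4 libraries, and levels are given as a description. The minimum also reaches into the comparison: 19 members had a siControl mean under 1 TPM and entered through the siCNOT4 libraries, while 0 members had a siCNOT4 mean under 1 TPM.

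The libraries came from HEK293, an established human embryonic kidney line. Cells labelled WT received a negative control siRNA (siControl, 2 libraries), and cells labelled CNOT4 knockdown received siRNA against CNOT4 (siCNOT4, 2 libraries), both at 10 nM for 72 h. CNOT4 is an E3 ubiquitin ligase associated with the CCR4-NOT deadenylase complex, and the stated question was its role in how codon usage affects expression. The libraries were poly(A)-selected with a kit that keeps strand, so antisense RNAs without a poly(A) tail were not sampled. The labels do not say whether the replicates were separate cultures, so p-values measure only the spread between these libraries, which may be technical.

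An antisense RNA is transcribed from the strand opposite a named gene, the sense gene. Many start beside the sense gene's own promoter and run away from it, and others start inside or beyond the gene and run across it. Some act as RNAs on chromatin, on other RNAs or on microRNAs, some are hosts for small nucleolar RNAs cut from their introns, and for many no function is known. Much antisense transcription is removed in the nucleus by the exosome and its adaptor complexes. Whether reads were assigned by strand is not given in the sources used here. Reads from an antisense RNA and from exons of its sense gene on the same bases therefore cannot be told apart in these values.

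The region around the RefSeq start is shown for 5 antisense RNAs on which the results below turn. SDCBP2-AS1 and PSMG3-AS1 were 2 of the 3 with the largest gain over their sense gene. ARHGAP5-AS1 and EPB41L4A-AS1 were 2 of the 3 with the largest loss against theirs. C17orf76-AS1 was the most abundant. Each sequence is GRCh38.p14 from RefSeq, 5′ to 3′ on the RNA's own strand, with the 250 bases before the start in lower case and the first 50 transcribed bases in capitals. The windows are chr20:1325093-1325392 (+), chr7:1569823-1570122 (+), chr14:32076650-32076949 (-), chr5:112160276-112160575 (+) and chr17:16438737-16439036 (+, under the RefSeq symbol SNHG29).
SDCBP2-AS1: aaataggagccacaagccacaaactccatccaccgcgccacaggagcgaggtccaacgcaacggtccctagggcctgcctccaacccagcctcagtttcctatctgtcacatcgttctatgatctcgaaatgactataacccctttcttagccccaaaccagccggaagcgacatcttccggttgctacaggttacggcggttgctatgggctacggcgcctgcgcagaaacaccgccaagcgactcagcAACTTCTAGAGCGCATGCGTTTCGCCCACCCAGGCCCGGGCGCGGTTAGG
PSMG3-AS1: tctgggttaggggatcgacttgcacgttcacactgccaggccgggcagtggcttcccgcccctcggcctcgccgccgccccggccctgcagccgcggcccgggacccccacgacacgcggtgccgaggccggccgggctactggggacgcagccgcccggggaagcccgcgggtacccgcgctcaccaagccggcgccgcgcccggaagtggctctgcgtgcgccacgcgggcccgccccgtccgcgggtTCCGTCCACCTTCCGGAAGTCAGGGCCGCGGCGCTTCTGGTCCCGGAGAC
ARHGAP5-AS1: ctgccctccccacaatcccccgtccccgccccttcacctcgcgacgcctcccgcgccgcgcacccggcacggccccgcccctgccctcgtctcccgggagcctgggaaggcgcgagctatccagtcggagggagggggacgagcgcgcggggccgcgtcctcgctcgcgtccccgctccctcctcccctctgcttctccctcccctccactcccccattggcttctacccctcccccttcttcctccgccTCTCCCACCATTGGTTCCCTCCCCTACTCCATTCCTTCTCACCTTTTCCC
EPB41L4A-AS1: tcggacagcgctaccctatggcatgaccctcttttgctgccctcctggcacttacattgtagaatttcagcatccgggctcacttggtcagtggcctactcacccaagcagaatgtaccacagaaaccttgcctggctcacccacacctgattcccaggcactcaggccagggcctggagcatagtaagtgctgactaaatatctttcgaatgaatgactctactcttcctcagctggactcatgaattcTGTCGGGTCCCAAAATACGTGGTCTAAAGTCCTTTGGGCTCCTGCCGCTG
C17orf76-AS1: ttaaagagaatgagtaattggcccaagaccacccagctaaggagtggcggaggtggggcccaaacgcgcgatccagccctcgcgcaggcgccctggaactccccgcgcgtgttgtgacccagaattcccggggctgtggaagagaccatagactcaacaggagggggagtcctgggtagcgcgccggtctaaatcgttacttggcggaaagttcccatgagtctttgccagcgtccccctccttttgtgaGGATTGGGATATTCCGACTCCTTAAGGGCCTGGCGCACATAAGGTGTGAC

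The PSMG3-AS1 window held 44 CpG dinucleotides and the EPB41L4A-AS1 window 7. Those of SDCBP2-AS1, ARHGAP5-AS1 and C17orf76-AS1 held 23, 28 and 19. Windows were found for 111 of the 140 members, and their median was 24 CpG against 14 over 27305 windows, 1 for each symbol. The 27305 were not limited by TPM as the members were, so this and the motif shares compare unlike sets. The letters GGGCGG, the core of the GC box, were found on either strand in 59.5% of member windows and in 44.6% of all windows. CCAAT was found in 31.5% against 35.7%, and TATAAA in 4.5% against 12%. Of the 5 windows printed, GGGCGG occurred 4 times in PSMG3-AS1 and 2 times in ARHGAP5-AS1, and CCAAT 2 times in each of ARHGAP5-AS1 and C17orf76-AS1. SDCBP2-AS1 and EPB41L4A-AS1 held none of the 3 motifs. These are matches of letters and not sites at which a factor was measured.

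The depth, recovered from the steps in the TPM values, was 27634093 and 25725172 reads in siControl and 29025371 and 28735181 reads in siCNOT4. The targeted transcript CNOT4 had 6.43 and 4.73 TPM in siControl and 3.38 and 3.81 TPM in siCNOT4, a ratio of means of 0.644 (log2 change -0.51, SE 0.26, limma adjusted p = 0.184). Both siCNOT4 libraries lay below both siControl libraries, and the difference did not pass the threshold of 0.05. The siControl replicates stood further apart than the siCNOT4 replicates. On log2(TPM + 1) the SD of the difference between replicates over members was 0.39 in siControl and 0.25 in siCNOT4. Over all features it was 0.48 and 0.20. In siControl, replicate 1 was above replicate 2 in 100 of 140 members and in 11354 of 14208 features. The median siControl difference was 0.18 in members and 0.38 over all features, so this shift was not particular to antisense RNAs. Of the HEK293 markers, KRT8, KRT18, VIM and NEFL were between 193 and 917 TPM in every library. VIM was called lower, with 917 and 650 TPM in siControl and 369 and 354 TPM in siCNOT4 (log2 change -1.09, limma adjusted p = 0.0288). PAX2 was between 1.10 and 1.91 TPM, and NEFM was under 1 TPM in all 4. Markers of other cell types (PTPRC, CD3E, ALB, COL1A1, COL3A1, PECAM1 and HBA1) summed to 1.63 and 1.20 TPM in siControl and 6.15 and 7.89 TPM in siCNOT4. Most of that sum was COL1A1, the only 1 of the 7 that met the minimum and was tested, and it was called higher. Without COL1A1 the sums were 0.234 and 0.293 TPM in siControl and 1.06 and 1.29 TPM in siCNOT4. Of the 7, 3, 2, 1 and 0 were at 0 in the 4 libraries. Features above 0 numbered 17661 and 17531 in siControl and 18667 and 18629 in siCNOT4. The part of these markers, and of the difference in features above 0, in the results below was not tested.

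Antisense RNAs moved in both directions after CNOT4 siRNA. Of the 140, 23 were higher and 6 lower in siCNOT4 at a limma adjusted p under 0.05 on log2(TPM + 1), or 16.4% and 4.29%. Over all 14208 features tested, 11.3% were called higher and 1.3% lower (12.6% in all). In bulk RNA, a change in RNA per cell and a change in the share of cells that hold it cannot be told apart. The median log2 change of the members was 0.40 (quartiles 0.021 and 0.87), against 0.50 over all features (quartiles 0.13 and 0.87). Changes ran from -1.28 to 2.79, and 108 of 140 members were above 0 (77.1%, against 81.2% of all features). Relative to the median of all features, 64 members were above it. Both siCNOT4 libraries lay above both siControl libraries in 78 members and below them in 20 (over all features, in 66.4% and 10.6%), and the groups overlapped in 42. Groups did not overlap in 70% of members and in 77.1% of all features. The 56 tested LINC symbols, intergenic long non-coding RNAs, had a median of 0.59, with 9 called higher and 0 lower (26 with an unadjusted p under 0.05, or 46.4%, against 42% of all features).

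These directions are relative to the fixed sum of TPM. A trimmed-mean scaling of the libraries against each other (TMM) moved the median of all features from 0.50 to -0.042 and that of the members from 0.40 to -0.051. After TMM, 8 members were called higher and 12 lower, against 4.12% and 5.78% of all features, so the split between higher and lower turned. After quantile normalization the counts were 4 and 25, against 7.11% and 8.23%. All 23 higher and all 6 lower members kept their direction under both scalings. Of the 23, 8 were still called after TMM and 4 after quantile normalization, whereas all 6 of the lower ones were still called after both. The counts also depended on single libraries: they were 80 and 16 without siControl replicate 1 (70.9% and 8.73% of all features), 57 and 16 without siControl replicate 2 (47.2% and 10.3%), 9 and 1 without siCNOT4 replicate 1 (3.09% and 0.26%) and 12 and 0 without siCNOT4 replicate 2 (2.91% and 0.26%).

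**Figure D1:**
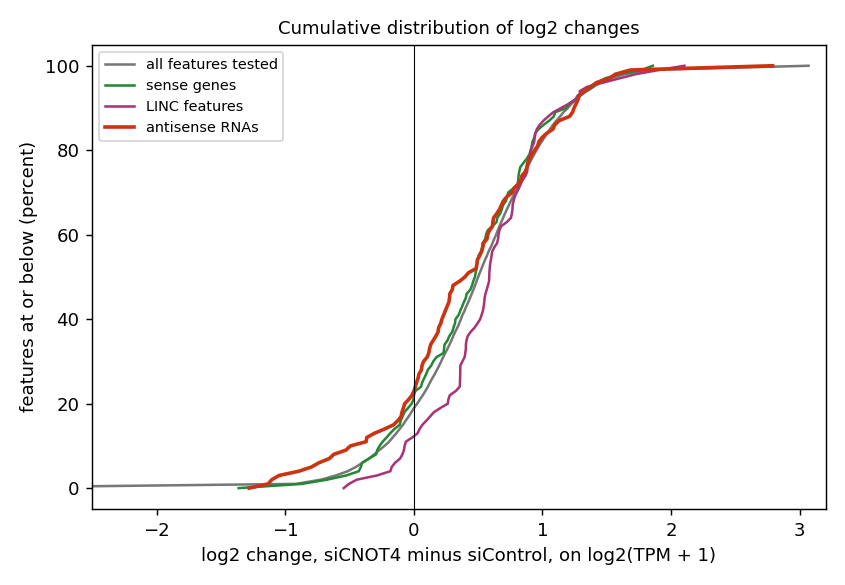
Cumulative distribution of the log2 change on log2(TPM + 1), siCNOT4 minus siControl (horizontal axis), as the percent of features at or below each value (vertical axis), for the 140 antisense RNAs, the 123 tested sense genes, 56 LINC features and all 14208 features tested. The antisense curve lies left of the curve of all features below their medians (0.40 and 0.50), and both reach 0.87 at the upper quartile.

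The summed level of the 140 went the other way from their median. Their TPM summed to 1883 and 1909 in siControl and to 1627 and 1620 in siCNOT4, or 0.188%, 0.191%, 0.163% and 0.162% of all TPM. C17orf76-AS1 alone made up 39.9% and 46.9% of the sum in siControl and 24.8% and 23.4% in siCNOT4. Without it the sums were 1131 and 1014 TPM in siControl and 1222 and 1242 TPM in siCNOT4, so the order of the groups depended on this 1 RNA. At least 1 TPM was reached by 124 and 113 members in the siControl libraries and by 138 in each siCNOT4 library. The 19 members with a siControl mean under 1 TPM entered through siCNOT4, and 0 entered the other way. The minimum thus favours siCNOT4 in these counts, and they support nothing. A typical member rested on few reads, with a median of 88 and 91 in siControl and of 91.5 and 106 in siCNOT4.

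SDCBP2-AS1 had the largest change of the 140. It lies on chromosome 20 (1325405 to 1378734, plus strand, GRCh38 in GENCODE 29). It has an annotated transcript start 286 bases from the nearest transcript start of SDCBP2, which encodes the PDZ-domain protein syntenin-2. Its level was 2.92 and 1.72 TPM in siControl and 20.6 and 22.5 TPM in siCNOT4, from 102, 68, 686 and 739 reads. The 95% Poisson intervals of those levels, which cover counting error only, were 2.38 to 3.55, 1.33 to 2.18, 19.1 to 22.2 and 20.9 to 24.2 TPM. Both siCNOT4 libraries were far above both siControl libraries, and group means were 2.32 ± 0.853 and 21.6 ± 1.32 TPM (SD, n = 2 each). The log2 change was 2.79 (SE 0.30, limma adjusted p = 0.0227), and 3 of the 14208 features had a higher one. It was 2.29 after TMM scaling and 2.18 after quantile normalization, and from 2.52 to 3.05 with 1 library left out, with a call in each. SDCBP2 itself had 3.61 and 2.16 TPM in siControl and 4.16 and 4.30 TPM in siCNOT4 (log2 change 0.45, limma adjusted p = 0.236).

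DLGAP1-AS1 lies within the gene of a postsynaptic scaffold protein on chromosome 18 (3593732 to 3598352, plus strand). It had 1.01 and 1.78 TPM in siControl and 6.69 and 6.77 TPM in siCNOT4 (log2 change 1.71, SE 0.26, limma adjusted p = 0.0252). DLGAP1 had 4.08 and 1.96 against 2.85 and 2.49 TPM, groups that overlapped. PSMG3-AS1, on chromosome 7 (1570073 to 1589626, plus strand), has a transcript start 28 bases from the nearest of PSMG3, which encodes a proteasome assembly chaperone. It had 2.05 and 1.48 TPM in siControl and 6.99 and 8.27 TPM in siCNOT4 (log2 change 1.65, SE 0.25, limma adjusted p = 0.0255). PSMG3, at 87.3 and 121 TPM in siControl, had 68.2 and 79.7 TPM in siCNOT4, lower in both libraries without passing the threshold (log2 change -0.47, limma adjusted p = 0.143). DLGAP1-AS1 was no longer called after TMM or quantile normalization (1.25, adjusted p = 0.0545, and 1.04, adjusted p = 0.0613, in limma). PSMG3-AS1 was not called without siCNOT4 replicate 1 (adjusted p = 0.0502) or replicate 2 (0.096).

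UPK1A-AS1 runs across UPK1A, a gene for a uroplakin of the urothelium, on chromosome 19 (35667948 to 35673291, minus strand). It had 0.582 and 0.428 TPM in siControl and 3.36 and 3.40 TPM in siCNOT4, from 6, 5, 33 and 33 reads (log2 change 1.54, SE 0.18, limma adjusted p = 0.0227). UPK1A was also called higher, with 1.14 and 0.556 TPM in siControl and 4.31 and 6.77 TPM in siCNOT4 (log2 change 1.82, limma adjusted p = 0.0259). This was the only pair of the 123 tested in which both RNAs were called. Their siControl means were under 1 TPM (0.505 for UPK1A-AS1 and 0.846 for UPK1A). Both passed the minimum through siCNOT4, so the joint call supports nothing. Their exons share 258 bases in GENCODE 29, on which the reads of the pair cannot be told apart.

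ENO1-AS1 has a transcript start 115 bases from the nearest of ENO1, the gene for the glycolytic enzyme enolase. It had 2.42 and 3.81 TPM in siControl and 13.4 and 7.72 TPM in siCNOT4, from 14, 25, 74 and 42 reads (log2 change 1.47, limma adjusted p = 0.0483). ENO1 is far more abundant, at 2070 and 1915 against 1820 and 1696 TPM, and its log2 change was -0.18 (limma adjusted p = 0.274). The ENO1-AS1 call was lost after TMM (0.95, limma adjusted p = 0.141) and without siCNOT4 replicate 1 (1.10, adjusted p = 0.403) or replicate 2 (1.83, adjusted p = 0.132). NAGPA-AS1 is named for the enzyme that uncovers mannose 6-phosphate on lysosomal enzymes. It had 0.624 TPM in siControl replicate 1, 0 reads in siControl replicate 2 (which allows up to 0.165 TPM, or 3 reads), and 2.49 and 2.12 TPM in siCNOT4. Its fitted log2 change of 1.37 (limma adjusted p = 0.0339) depends on the pseudocount of 1 and was 3.16 with a pseudocount of 0.1 (adjusted p = 0.0758).

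A further 6 of the 12 largest called increases were of similar size. C1QTNF9B-AS1 had 1.45 and 2.18 TPM in siControl and 5.82 and 8.52 TPM in siCNOT4 (1.53 on the log2 scale). WDR11-AS1 had 0.401 and 0.952 against 3.66 and 2.99 TPM (1.38). RBM26-AS1 had 0.906 and 0.908 against 3.74 and 3.65 TPM (1.30). In each of these RNAs both siCNOT4 libraries exceeded both siControl libraries, as in 66.4% of all features, and the calls themselves select for this. SH3BP5-AS1 had 2.51 and 1.50 against 5.92 and 6.46 TPM (1.28), and FGF13-AS1 0.741 and 0.571 against 4.09 and 2.17 TPM (1.28). KDM4A-AS1, named for a histone lysine demethylase, had 0.791 and 0.741 against 2.80 and 3.73 TPM (1.26). Limma adjusted p-values of these 6 lay between 0.0244 and 0.0413. WDR11-AS1, RBM26-AS1, FGF13-AS1 and KDM4A-AS1 had siControl means under 1 TPM (0.676, 0.907, 0.656 and 0.766), as did NAGPA-AS1 above (0.312). They passed the minimum through siCNOT4, so their higher calls support nothing. The other 11 called higher had log2 changes from 0.87 to 1.26 and all had siControl means under 3 TPM.

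**Figure D2:**
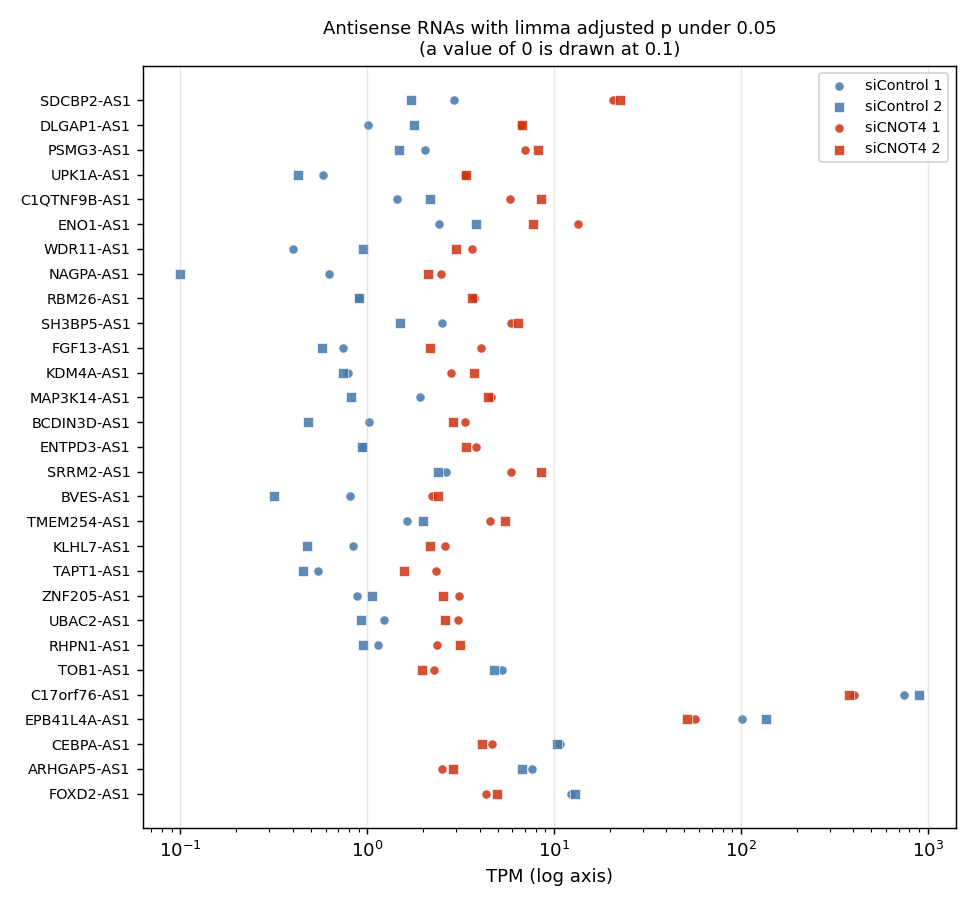
TPM (log axis) in each of the 4 libraries for the 29 antisense RNAs with a limma adjusted p under 0.05, ordered by log2 change. In every row the 2 siCNOT4 libraries lie on 1 side of both siControl libraries, from SDCBP2-AS1 (20.6 and 22.5 TPM against 2.92 and 1.72) to FOXD2-AS1 (4.33 and 4.94 against 12.4 and 13.0). The calls select for this, and it holds in 77.1% of all features.

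The calls in the 2 directions sat at different levels. All but 2 of the 23 called higher had a mean under 5 TPM: 10 of 30 members between 1 and 2 TPM were called higher, 11 of 53 between 2 and 5 TPM, 1 of 27 between 5 and 10 TPM and 1 of 30 above 10 TPM. Called lower were 0, 2, 2 and 2 members in those classes. The shares of all features called in these classes were not taken, so the classes are not read as a trait of antisense RNAs. Mean TPM and log2 change had a Spearman correlation of -0.243 over all features and -0.220 over the members. Of the 19 members with a siControl mean under 1 TPM, 12 were called higher. These had to be higher in siCNOT4 to pass the minimum, so their count supports nothing. Among the 121 others, 11 were called higher and 6 lower (9.09% and 4.96%, against 11.3% and 1.3% of all features). Their median log2 change was 0.28. The shares of all features carry no such minimum on siControl, which removes increases from low levels, so the sets are unlike. At the minimum itself, PAN3-AS1 (mean 1.01 TPM) had 1.09, 0.869, 1.07 and 1.01 TPM, and MATN1-AS1 (1.02) had 1.43, 0.365, 1.38 and 0.92 TPM, siControl first. Just below it, GAS6-AS1 (0.989) had 0.172 and 0.228 against 1.63 and 1.92 TPM, and MLLT4-AS1 (0.977) had 1.10 and 1.15 against 0.842 and 0.816 TPM.

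**Figure D3:**
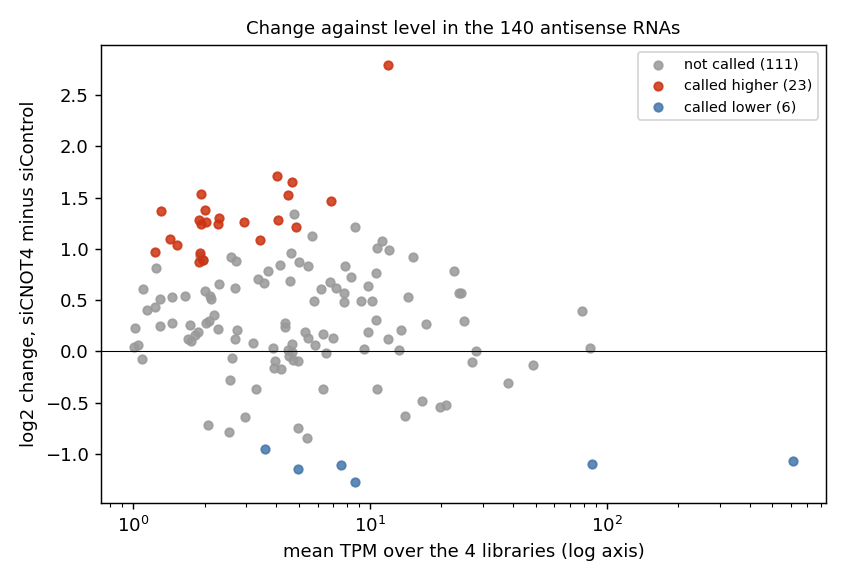
Log2 change on log2(TPM + 1), siCNOT4 minus siControl (vertical axis), against the mean TPM over the 4 libraries (log axis) for the 140 antisense RNAs, with the 23 called higher and the 6 called lower in colour. The calls above 0 sit mostly at means under 5 TPM, apart from SDCBP2-AS1 and ENO1-AS1, and the 2 points at the far right with calls below 0 are EPB41L4A-AS1 (86.4 TPM) and C17orf76-AS1 (608 TPM).

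The 6 called lower included the 2 most abundant antisense RNAs. Both contain small nucleolar RNA genes, whose products guide the modification of ribosomal RNA, and the host's spliced remainder is what poly(A) libraries read. C17orf76-AS1 (LRRC75A-AS1 in GENCODE 29 and SNHG29 in RefSeq) lies on chromosome 17 (16438822 to 16478678, plus strand) and spans SNORD49A, SNORD49B and SNORD65. It had 752 and 895 TPM in siControl and 404 and 379 TPM in siCNOT4, from 24436, 33010, 12506 and 11579 reads. It was lower in both siCNOT4 libraries, with a ratio of means of 0.475 (log2 change -1.07, SE 0.14, limma adjusted p = 0.0234). EPB41L4A-AS1, on chromosome 5 (112160526 to 112164276, plus strand), spans SNORA13. It had 101 and 136 TPM in siControl and 56.9 and 51.4 TPM in siCNOT4 (log2 change -1.10, SE 0.21, limma adjusted p = 0.0335). TMEM161B-AS1 also spans a small nucleolar RNA gene annotated as RF00156. It had 19.9 and 19.1 against 14.5 and 12.8 TPM (log2 change -0.49, limma adjusted p = 0.178) and was called after TMM (-1.06, adjusted p = 0.0405) and quantile normalization (-1.03, adjusted p = 0.0366).

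The other 4 called lower lie beside the protein-coding genes they are named for. FOXD2-AS1, beside a forkhead transcription factor gene on chromosome 1 (47432133 to 47434641, minus strand), had 12.4 and 13.0 TPM in siControl and 4.33 and 4.94 TPM in siCNOT4 (log2 change -1.28, SE 0.27, limma adjusted p = 0.0406). ARHGAP5-AS1, beside ARHGAP5 on chromosome 14 (32074946 to 32076793, minus strand), had 7.65 and 6.79 against 2.53 and 2.88 TPM (log2 change -1.15, limma adjusted p = 0.0428). CEBPA-AS1, divergent from the gene of a C/EBP transcription factor on chromosome 19 (33302857 to 33305054, plus strand), had 10.8 and 10.4 against 4.68 and 4.14 TPM (log2 change -1.11, limma adjusted p = 0.0475). TOB1-AS1 lies on chromosome 17 (50866679 to 50909737, plus strand) beside TOB1, whose protein binds the CCR4-NOT deadenylases. It had 5.29 and 4.80 against 2.29 and 1.97 TPM (log2 change -0.95, limma adjusted p = 0.0481). In all 4 the replicates were close and the groups did not overlap, which the calls themselves select for. Groups did not overlap in 77.1% of all features. Relative to the median of all features, the 6 fell by between 1.45 and 1.78 on the log2 scale. With siCNOT4 replicate 1 left out, 1 of the 6 was called, and with siCNOT4 replicate 2 left out, 0 were, where C17orf76-AS1 had a limma adjusted p of 0.0574.

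Most of the other abundant antisense RNAs were not called. PITPNA-AS1 had 84.5 and 83.9 TPM in siControl and 85.6 and 86.9 TPM in siCNOT4 (log2 change 0.033, limma adjusted p = 0.881). FGD5-AS1 had 95.4 and 45.8 against 88.1 and 85.8 TPM, with siControl replicate 2 as the low library (log2 change 0.39, limma adjusted p = 0.39). OIP5-AS1, the vertebrate RNA also known as cyrano, with a conserved site for a microRNA of the miR-7 family, had 56.2 and 45.3 against 53.9 and 39.4 TPM (-0.13, limma adjusted p = 0.688). Its groups overlapped. HNRNPU-AS1 had 44.9 and 39.6 against 32.6 and 35.2 TPM (-0.31, limma adjusted p = 0.273). THAP9-AS1 had 32.9 and 23.5 against 27.6 and 28.1 TPM, and MAPKAPK5-AS1 26.1 and 29.9 against 26.2 and 25.7 TPM. SETD5-AS1 (THUMPD3-AS1 in GENCODE 29) had 19.5 and 19.2 against 29.3 in both siCNOT4 libraries, without passing the threshold (0.57, limma adjusted p = 0.106), and its change was -0.0063 after TMM. ZNF790-AS1 had 20.9 and 23.3 against 24.7 and 30.3 TPM.

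**Figure D4:**
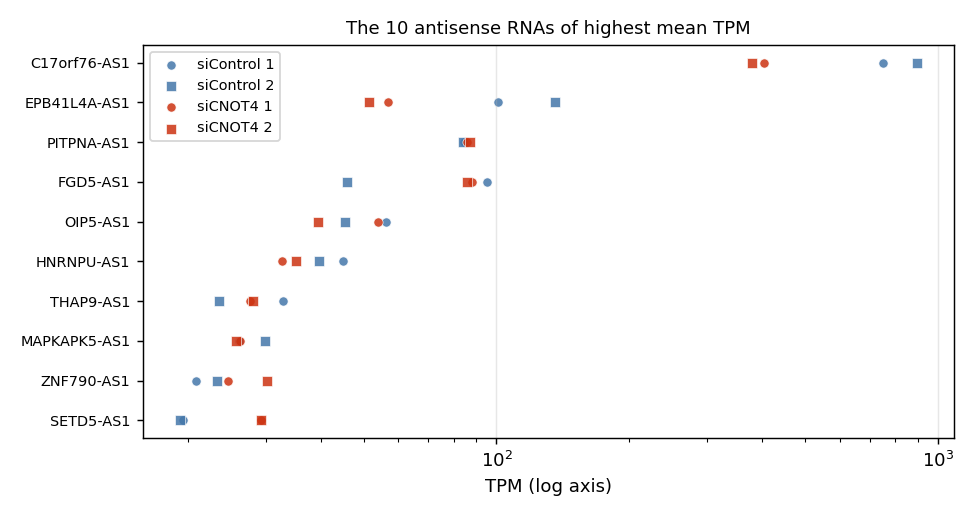
TPM (log axis) in each library for the 10 antisense RNAs of highest mean TPM. C17orf76-AS1 (752 and 895 TPM in siControl, 404 and 379 TPM in siCNOT4) and EPB41L4A-AS1 (101 and 136, 56.9 and 51.4) are the 2 called rows, and FGD5-AS1 has 1 low library, siControl 2 at 45.8 TPM.

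A list of 20 antisense RNAs that have been studied in other work had 13 members among the 140 by exact symbol. Of these, EPB41L4A-AS1 was the 1 called, where 12.6% of all features were. THUMPD3-AS1, also on the list, is the member SETD5-AS1 given above, which was not called. LOXL1-AS1 had 10.7 and 5.28 TPM in siControl and 15.7 and 16.4 TPM in siCNOT4 (log2 change 0.99, limma adjusted p = 0.0972), while LOXL1, a collagen cross-linking enzyme, had 12.6 and 11.3 against 6.45 and 7.36 TPM (-0.71, adjusted p = 0.102). CDKN2B-AS1, known as ANRIL, had 1.82 and 1.57 against 2.14 and 1.99 TPM. DLX6-AS1 had 1.86 and 0.991 against 2.81 and 2.39 TPM. GABPB1-AS1, MCM3AP-AS1, TMPO-AS1, ZEB1-AS1 and SBF2-AS1 had log2 changes between 0.017 and 0.31, and the groups overlapped in each. The 6 members from the HOX clusters, grouped after their values were seen, had no call, too few members to set against the 12.6% of all features. HOXD-AS1 had 11.7 and 8.67 against 19.0 and 20.9 TPM (0.92, limma adjusted p = 0.0688), HOXC-AS5 2.30 and 2.32 against 4.20 and 4.60 TPM (0.71), and HOXA-AS4 8.57 and 8.14 against 11.7 and 12.6 TPM (0.49). HOXB-AS3, with 11.6 and 13.2 against 14.2 and 14.8 TPM, was also higher in both siCNOT4 libraries, while HOXA-AS3 and HOXD-AS2 overlapped between groups.

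The sense gene was listed for 132 of the 140 and tested for 123. Among those 123, 9 were called higher and 1 lower (7.32% and 0.813%, against 11.3% and 1.3% of all features), and their median log2 change was 0.48. The sense gene had the higher mean TPM in 100 of the 123 pairs. Of the 26 called antisense RNAs with a tested sense gene, 25 had a sense gene that was not called. Conversely, 9 called sense genes had an antisense RNA that was not called. GAS5, a small nucleolar RNA host whose spliced RNA is non-coding, had 974 and 1211 TPM in siControl and 458 and 389 TPM in siCNOT4 (log2 change -1.36, limma adjusted p = 0.0227). GAS5-AS1 had 4.45 and 3.72 against 4.90 and 2.84 TPM, groups that overlapped (-0.092). LGALS8, the gene of a galectin, had 14.7 and 9.07 against 42.9 and 46.3 TPM (1.86, limma adjusted p = 0.0259). IDH1, isocitrate dehydrogenase, had 104 and 92.5 against 188 and 180 TPM (0.90, limma adjusted p = 0.0288). BAIAP2, FGD5, MAFG, MCF2L, MCM3AP and NAPA were the other 6 called higher beside an uncalled antisense RNA. FGD5 (siControl mean 0.494 TPM), like UPK1A, passed the minimum through siCNOT4, so the higher calls of FGD5 and UPK1A support nothing. A call in 1 RNA of a pair and not in the other does not show that the 2 changed differently, and the difference was not tested.

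The log2 changes of antisense RNA and sense gene had little relation over the pairs. Over 123 pairs, which share the same 4 libraries, the Spearman correlation was 0.093 and Pearson's r 0.085. The signs matched in 80 pairs, where 77.1% of members and 78% of the tested sense genes were above 0 in any case. The sense gene's change was above 0 for 15 of the 21 called-higher antisense RNAs with a tested sense gene, against 81.2% of all features. It was above the median of all features for 11. The antisense change minus the sense change had a median of -0.13, was above 0 in 53 pairs and below 0 in 70, exceeded 1 in 10 and was under -1 in 15.

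**Figure D5:**
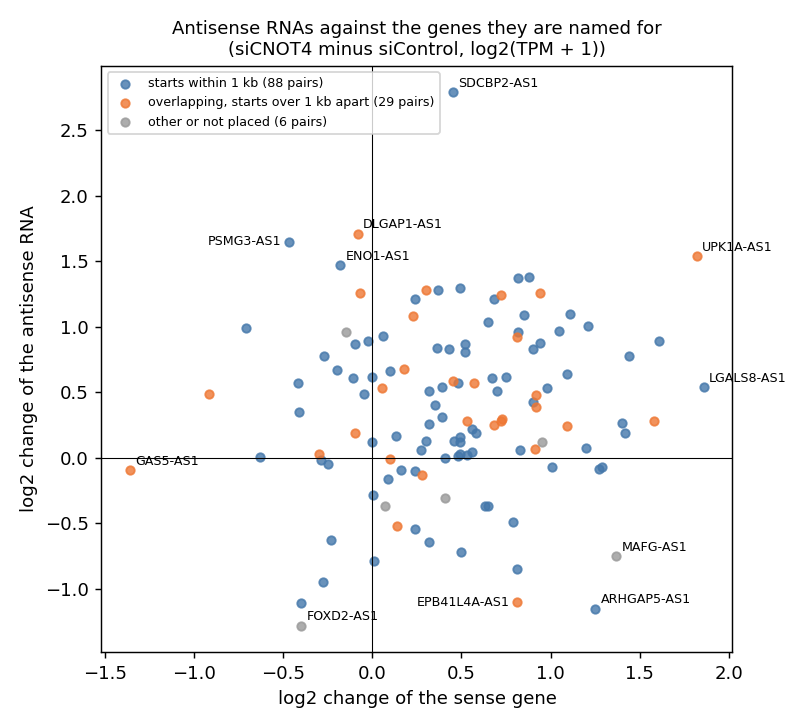
Log2 change of the antisense RNA (vertical axis) against that of its sense gene (horizontal axis), both siCNOT4 minus siControl on log2(TPM + 1), for 123 pairs, coloured by arrangement in GENCODE 29. The points form no line (Spearman correlation 0.093), with SDCBP2-AS1 at the top (2.79 against 0.45) and ARHGAP5-AS1 at the lower right (-1.15 against 1.25).

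In the pairs that parted most, the ratio within each library shows the shift. The log2(TPM + 1) of SDCBP2-AS1 minus that of SDCBP2 was -0.23 and -0.22 in siControl, against 2.07 and 2.15 in siCNOT4, a difference of 2.34. The antisense RNA went from just under its sense gene to well above it. For PSMG3-AS1 the same quantity was -4.86 and -5.62 in siControl, against -3.11 and -3.12 in siCNOT4 (difference 2.12), and for DLGAP1-AS1 it was -1.34 and -0.092 against 1.00 and 1.15 (1.79). In the opposite direction, ARHGAP5-AS1 minus ARHGAP5 was -1.54 and 0.043 in siControl, against -3.32 and -2.98 in siCNOT4 (-2.40). ARHGAP5 itself had 24.2 and 6.56 TPM in siControl and 34.2 and 29.7 TPM in siCNOT4 (log2 change 1.25, limma adjusted p = 0.133), with siControl replicate 2 as the low library. MAFG-AS1 had 5.62 and 7.32 against 3.55 and 3.29 TPM (-0.75, limma adjusted p = 0.0874). MAFG, a small MAF transcription factor, had 17.4 and 9.54 against 33.1 and 37.0 TPM (1.37, limma adjusted p = 0.0477), and the pair's difference was -2.12. RefSeq gives the symbol MAFG-AS1 to 1 RNA and lists it as an older symbol of another, so it was not placed and no window was used. EPB41L4A-AS1 minus EPB41L4A was 3.60 and 4.59 in siControl, against 2.32 and 2.05 in siCNOT4 (-1.91), with EPB41L4A at 7.43 and 4.69 against 10.6 and 11.7 TPM. These differences are given as descriptions, and an exact permutation test of 2 libraries against 2 cannot give a p below 0.333.

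In GENCODE 29, 129 antisense RNAs could be placed relative to their sense gene, all on the opposite strand. In 91 of them the nearest annotated transcript starts of the pair lay within 1 kb of each other, at a median of 114 bases. The outer boundaries of the genes can lie further apart. In 36 the genes overlapped with starts further apart, and in 2 they did not overlap. Called were 17 of the 91 (14 higher and 3 lower, 18.7%) and 10 of the 36 (8 higher and 2 lower, 27.8%), against 12.6% of all features, and the median log2 changes were 0.40 and 0.49, against 0.50. These shares, and those by shared exon bases below, hold members with a siControl mean under 1 TPM, which passed the minimum through siCNOT4. Their higher calls support nothing, so the shares are not read as an excess over 12.6%. The pairs' changes had a Spearman correlation of 0.105 over 88 pairs with close starts and of 0.117 over 29 overlapping pairs. Exons of antisense RNA and sense gene shared bases in 98 of the 129. Of these, 21 were called (17 higher and 4 lower, 21.4%, against 12.6% of all features) and the median was 0.42. Of the 31 that shared none, such as DLGAP1-AS1, FOXD2-AS1 and CEBPA-AS1, 7 were called (5 higher and 2 lower, 22.6%) and the median was 0.35. Shared bases are those of GENCODE 29 on GRCh38, and the annotation used in counting is not given. What reads of the sense gene add to any of these calls was not tested.

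The lengths recovered from the values had a median of 2019 nt over the 140, with quartiles of 1140 and 2830 nt and a range of 347 to 11430 nt. Length and log2 change had a Spearman correlation of 0.028 over the members and of 0.349 over 14190 features. Mean TPM and log2 change had a Spearman correlation of -0.220 over the members and -0.243 over all features. These correlations are across genes of the same 4 libraries and are given as descriptions.

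Genes of nuclear RNA surveillance were read from a list of 23 that covers the nuclear exosome, its NEXT and PAXT adaptors, the cap-binding complex and the exonuclease XRN2. All 23 were tested, 1 was called lower and 0 higher by limma, against 1.3% and 11.3% of all features. At an unadjusted p under 0.05 there were 10 (43.5%, against 42% of all features), voom on recovered reads called 1 higher, and the median log2 change was 0.14. The 1 called was EXOSC5, a subunit of the exosome's core ring, with 113 and 122 TPM in siControl and 41.3 and 43.7 TPM in siCNOT4 (log2 change -1.44, SE 0.17, limma adjusted p = 0.0227). Its groups lay far apart, and it was called in all 12 alternatives. EXOSC10, a catalytic subunit, had 122 and 52.7 against 162 and 168 TPM (1.03, limma adjusted p = 0.0938), and DIS3, the other, had 21.9 and 12.5 against 32.4 and 33.3 TPM (0.94, adjusted p = 0.0799). ZFC3H1, a scaffold of the PAXT adaptor, had 18.0 and 8.25 against 34.5 and 35.9 TPM (1.45, limma adjusted p = 0.0539). In EXOSC10, DIS3 and ZFC3H1, siControl replicate 2 was the low library.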

How the data were processed

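RNA was measured in 4 libraries, 2 siControl and 2 siCNOT4, grouped by sample title. The authors deposited TPM per gene symbol for each library, per the file headers. FastQC 0.11.2, STAR 2.5.3a, featureCounts and hg19 are named in the submitters' processing notes, and the annotation and strand setting are not given in the sources used here. The values of 1 library sum to 1000000, so a fall in abundant RNAs raises all others.

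TPM was transformed to log2(TPM + 1), so changes of low genes are understated. The 14208 features with a mean of at least 1 TPM were fitted together with limma 3.58.1 in R 4.3.3 (lmFit, eBayes with trend, no covariates, prior degrees of freedom 4.22), and p-values were adjusted over all of them by the Benjamini-Hochberg method at 0.05. Because TPM is reads over length times a constant, whole reads and lengths could be solved from the values (17577 of 17578 features above 0 in at least 3 libraries, within 0.001 of a whole read). They gave the depth, the Poisson intervals at a confidence level of 95%, and a voom fit added after the data were seen. Reads carry no molecular identifiers, so these intervals cover counting error only.

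The members and lists were chosen with earlier results of these data known. Named were SDCBP2-AS1, up to 12 members called higher, the 6 lowest, the 10 most abundant, the 3 pairs that parted most in each direction, the 2 symbols on each side of the TPM minimum, a list of 20 known antisense RNAs, and their sense genes. The HOX members, TMEM161B-AS1, the called sense genes, and the surveillance genes EXOSC10, DIS3 and ZFC3H1 were named after their values were seen. Positions came from GENCODE 29 (GRCh38), where 136 members matched, 17 of them through an older symbol. The deposited tables hold no coordinates, and GRCh38 is not the build in the notes. Start windows came from RefSeq (GRCh38.p14).

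Alternatives were a pseudocount of 0.1, no filter, a minimum of 5 TPM, unweighted TMM factors on TPM (trims of 30% and 5%), quantile normalization, each library left out, the replicate number as a block, and eBayes without trend. In data simulated for the siCNOT4 and siControl comparison (14208 features, 200 changed), limma called 160 of 200 at a log2 change of 3, with 3 false calls, and 0 of 200 at 1, where 157 had an unadjusted p under 0.05 and 196 the right sign.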

Additional observations from a re-analysis of the deposited data

How the results depend on the processing

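Counts of calls by limma moved with most choices, while all 29 called members kept their direction in each alternative in which they were tested. The counts of antisense RNAs higher and lower (23 and 6) were 7 and 1 with a pseudocount of 0.1 (3.36% and 0.563% of all features), 7 and 1 without a filter (4.29% and 0.309%), 1 and 1 at a minimum of 5 TPM (0.957% and 0.333%), 8 and 12 after TMM, 4 and 25 after quantile normalization, and 12 and 3 without a trend (4.95% and 0.373%). With 1 library left out they ranged from 9 to 80 higher and from 0 to 16 lower. Such fits assume that the lone library of an arm varies like the other group. Voom on recovered reads gave 20 and 8 (11.9% and 3.08% of all features). The sense genes (9 and 1) were 3 and 1 with a pseudocount of 0.1, 2 and 1 without a filter, 0 and 1 at 5 TPM, 2 and 7 after TMM, 9 and 11 after quantile normalization, 3 and 1 without a trend, 13 and 3 with voom, and from 1 to 84 and from 1 to 16 with 1 library left out. The surveillance genes (0 and 1) were 0 and 2 after TMM, 1 and 4 after quantile normalization, 1 and 1 with voom, and from 0 to 13 and from 1 to 6 with 1 library left out. The median log2 change of the antisense RNAs (0.40) was 0.53 with a pseudocount of 0.1, -0.051 after TMM, -0.20 after quantile normalization, 0.26 with voom, and from 0.32 to 0.53 with 1 library left out. That of all features (0.50) was -0.042 after TMM, 0.019 after quantile normalization and from 0.29 to 0.71 with 1 library left out. The antisense median minus that of all features (-0.10) was 0.046 without a filter and 0.029 without siControl replicate 2 (range over libraries left out -0.18 to 0.029). The median antisense minus sense difference (-0.13) was -0.34 at 5 TPM, where fewer pairs remain. CNOT4 (-0.51) was called after TMM (-1.0), after quantile normalization (-1.15), without siControl replicate 2 (-0.70) and with voom (-0.90), and ranged from -0.70 to -0.32 with 1 library left out. Where no cause is named, the cause was not tested.

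The replicate numbers are not stated to pair cultures. Deviations from the group means had a correlation of 0.1713 between same-numbered libraries. With 2 libraries in each group both pairs must give this same value, and its sign depends on the numbering. With the number as a replicate block, 32 antisense RNAs were called higher and 5 lower (23.5% and 2.2% of all features), 30 sense genes higher and 1 lower, and 5 surveillance genes higher and 1 lower, while CNOT4 stayed at -0.51. Depth limits the members under 2 TPM most: UPK1A-AS1 rested on 5 and 6 reads in siControl.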
